A study of Homo sapiens with 12 samples.

Results

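SGK1, SGK3, AKT1 and AKT2 are serine/threonine kinases of the AGC family, and PDPK1, also called PDK1, is the kinase that phosphorylates their activation loops. Every probe set whose platform annotation gave 1 of these 5 gene symbols was followed through all 12 arrays. Of 54675 probe sets on the array, 15 carried exactly 1 of the symbols: 1 for SGK1, 1 for AKT1, 7 for AKT2 and 6 for PDPK1. The 3 probe sets of SGK3 also carried C8orf44-SGK3, a readthrough transcript from the neighbouring gene, and 243264_s_at carried C8orf44 too. They are given as the SGK3 locus and are not counted among the 15.

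The arrays came from a study of primary microRNA transcripts that respond to glucocorticoids in acute lymphoblastic leukemia. RNA of the glucocorticoid-sensitive T-cell leukemia line CCRF-CEM-C7H2 was hybridized to Affymetrix HG-U133 Plus 2.0 arrays. The 4 groups were dexamethasone for 6 h, ethanol for 6 h, dexamethasone for 24 h and ethanol for 24 h, with 100 nM of the synthetic glucocorticoid dexamethasone or 0.1% of its carrier ethanol. Each group held 3 arrays from independent experiments, numbered 0, 1 and 3 at 6 h and 1, 2 and 3 at 24 h, all from 1 cell line.

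AKT and SGK kinases act below PI3-kinase. The lipid it makes draws AKT and PDPK1 to the membrane, PDPK1 phosphorylates the activation loop, and mTOR complex 2 (mTORC2) phosphorylates a second site near the C-terminus. The active kinases phosphorylate overlapping substrates, among them FOXO transcription factors, which then leave the nucleus, and GSK3, and in lymphocytes they support growth, glucose uptake and survival. AKT activity is set mainly by phosphorylation, whereas SGK1 is also controlled through its transcript, which was found as a serum- and glucocorticoid-induced message in rat cells.

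All values are deposited GCRMA expression values on the log2 scale, where 1 unit is a 2-fold step. A value of 4 was taken as the lowest usable signal, and a probe set was tested when it reached 4 on at least 3 arrays, which 23265 did. Between 41.2% and 42.0% of the probe sets reached 4 on an array, and arrays of 1 group correlated at 0.997 or more. A change was called at an adjusted p under 0.05 in limma, with Benjamini-Hochberg adjustment over all tested probe sets. Errors after a level are SD (n = 3 arrays) and errors after a difference are limma's standard errors. Unless the experiment is named as a block, each p sets a difference against the spread among the arrays of a group, from independent experiments of 1 line. It does not use the pairing of dexamethasone and ethanol arrays by experiment. The number of arrays limits the precision.

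The glucocorticoid response was present at both times: TSC22D3, which encodes the receptor target GILZ, was below 4 on every ethanol array and, against 4, at least 7.49 higher with dexamethasone at 6 h and 8.71 higher at 24 h (log2, limma, adjusted p = 2.17e-10 and 2.27e-11). Of 14 T-lineage markers 12 were at 4 or more on every array (CD2 and CD28 were below 4), and all 5 myeloid markers were below 4. At 24 h 5 of the 12 rose and 4 fell, against 23.9% higher and 28.1% lower of all tested genes, and the mean of the T-lineage list was 8.98 to 9.11 with dexamethasone and 8.93 to 9.01 with ethanol. CD79A and CD79B, otherwise B-cell genes, were also detected, CD79A between 9.78 and 11.80, while MS4A1 and PAX5 were below 4. Of 4 stromal markers COL1A1 was above 4 and COL1A2, COL3A1 and DCN were below, as was HBB. The mean level of the 4 B-lineage markers with a probe set, MS4A1 and PAX5 included, was 5.70 to 5.87 with dexamethasone and 5.58 to 5.82 with ethanol at 6 h. At 24 h it was 6.11 to 6.24 with dexamethasone and 5.68 to 5.74 with ethanol. Of the 2 that were tested, CD79A rose at 24 h (1.55, limma, adjusted p = 5.07e-05) and CD79B was not called (0.25, adjusted p = 0.256). The part of the T-lineage or the B-lineage list in the results below was not tested. Codes in the names of the raw array files separate the dexamethasone arrays of 6 h from the ethanol arrays of 6 h, so at 6 h this code and the treatment cannot be told apart, while all 6 arrays of 24 h share 1 code. Poly-A spike controls, RNAs added before labelling, read 0.47 higher with dexamethasone at 6 h and 0.34 higher at 24 h, so a scale set by them lowers every dexamethasone difference by these amounts. Hybridization controls, added after labelling, read 0.34 and 0.38 higher. On this spike scale 65% of all tested probe sets were called lower at 6 h, and 52.8% were called in either direction at 24 h. Values on it are given for the members where they alter a call or a direction against ethanol, and for the gene lists as counts.

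SGK1 lies on chromosome 6 (GRCh38.p14, 134169256 to 134318112, minus strand), and RefSeq gives it 3 separate starts with a promoter entry each. They are shown because SGK1 had the largest change among these kinases and the array's probe set does not tell which start was used. Each line runs from 250 bases before a start to 50 bases after it, and capitals mark AGAACA, the short motif bound by 1 glucocorticoid receptor monomer.
SGK1 first start, chr6:134318063-134318362: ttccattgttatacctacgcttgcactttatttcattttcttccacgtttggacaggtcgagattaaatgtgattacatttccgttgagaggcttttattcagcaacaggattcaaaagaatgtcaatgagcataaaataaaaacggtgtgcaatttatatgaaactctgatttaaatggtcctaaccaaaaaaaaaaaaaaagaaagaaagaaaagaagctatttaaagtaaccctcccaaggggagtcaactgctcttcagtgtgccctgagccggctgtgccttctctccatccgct
SGK1 second start, chr6:134177812-134178111: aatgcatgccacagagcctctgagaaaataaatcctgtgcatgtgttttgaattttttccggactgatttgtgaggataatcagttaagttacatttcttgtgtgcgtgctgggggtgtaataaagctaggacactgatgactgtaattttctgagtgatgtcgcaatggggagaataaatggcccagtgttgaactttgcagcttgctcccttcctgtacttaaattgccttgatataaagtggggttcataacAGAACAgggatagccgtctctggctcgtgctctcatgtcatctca
SGK1 last start, chr6:134174817-134175116: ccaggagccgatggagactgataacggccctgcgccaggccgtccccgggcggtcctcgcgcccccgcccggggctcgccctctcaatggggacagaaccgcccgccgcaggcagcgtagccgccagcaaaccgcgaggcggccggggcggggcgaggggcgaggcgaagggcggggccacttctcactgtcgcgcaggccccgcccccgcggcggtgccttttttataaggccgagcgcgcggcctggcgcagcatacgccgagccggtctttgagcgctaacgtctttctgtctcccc
The first window held 38.0% G or C, the second 43.0% and the last 73.3%. AGAACA, searched on both strands, was found in the second window only, 5 bases after the start. Of 35116 RefSeq promoters of this length, 14.8% held it. The paired receptor motif, GNACA and TGTNC with 3 bases of any kind between them, which 0.39% of promoters held, and the forkhead motif GTAAACA, which 3.42% held, matched in none of the 3. All 4 genes with a probe set of their own had entries, 8 windows in all, and AGAACA occurred in 1 other, at position -95 from the second start of AKT2. A motif match is a description of these letters and shows no binding. Sequence outside these windows was not searched, so the absence of a match applies to the windows only.

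AKT2, on the minus strand of chromosome 19 (GRCh38.p14, 40230317 to 40285345), bears on the study's own question, because the hairpin of miR-641 lies inside it. The hairpin spans chr19:40282543-40282641, 2704 bases downstream of AKT2's first start and 17192 bases upstream of its second start, so that, of these 2 starts, a transcript from the first would read through it. The RefSeq hairpin, in RNA letters, is given for that reason.
MIR641 hairpin: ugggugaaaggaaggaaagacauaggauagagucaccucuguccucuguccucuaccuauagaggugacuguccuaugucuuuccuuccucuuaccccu
None of the members' probe sets carried the MIR641 symbol, so the AKT2 values below are those of its host gene and not of the microRNA.

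SGK1 was the kinase that responded most: at 24 h it was 9.30-fold higher with dexamethasone, while at 6 h its groups overlapped. At 24 h the dexamethasone arrays read 7.83, 7.94 and 7.86 in experiments 1, 2 and 3, against 4.89, 4.72 and 4.37 on the ethanol arrays. The groups lay far apart, and the dexamethasone arrays differed by little among themselves (7.88 ± 0.06, against 4.66 ± 0.27 with ethanol). The difference was 3.22 ± 0.30 (limma, adjusted p = 8.19e-06). It was 2.88 on the spike scale and 3.07 to 3.33 in the 12 fits that each left out 1 array, and passed in all of them. Because whole cultures were lysed, a higher level per cell and a change in the make-up of the culture cannot be told apart, here and below.

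At 6 h SGK1 read 4.02, 5.17 and 4.59 with dexamethasone in experiments 0, 1 and 3, against 3.80, 4.71 and 3.81 with ethanol, 2 of which are below 4. Its dexamethasone array was the higher one in each of the 3 experiments, by 0.23, 0.46 and 0.78, but the experiments within each group were further apart than the group means. The difference, 0.49 ± 0.30, did not pass (limma, adjusted p = 0.398), and its 95% interval ran from -0.17 to 1.14. That fit ignores the pairing of the experiments. With the experiment as a block the difference was 0.49 with a smaller error of 0.14, and it missed the threshold by less (limma, adjusted p = 0.0616). The response at 24 h exceeded that at 6 h by 2.73 ± 0.42 (limma, adjusted p = 0.00112), so the 6 h difference amounted to 15.2% of the 24 h difference on the log2 scale. In order of level, dexamethasone at 24 h stood above the other groups, and ethanol at 24 h, dexamethasone at 6 h (4.60 ± 0.58) and ethanol at 6 h (4.11 ± 0.53) followed with ranges that overlapped each other. Ethanol at 24 h against ethanol at 6 h gave 0.55 ± 0.30 (limma, adjusted p = 0.411).

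**Figure D1:**
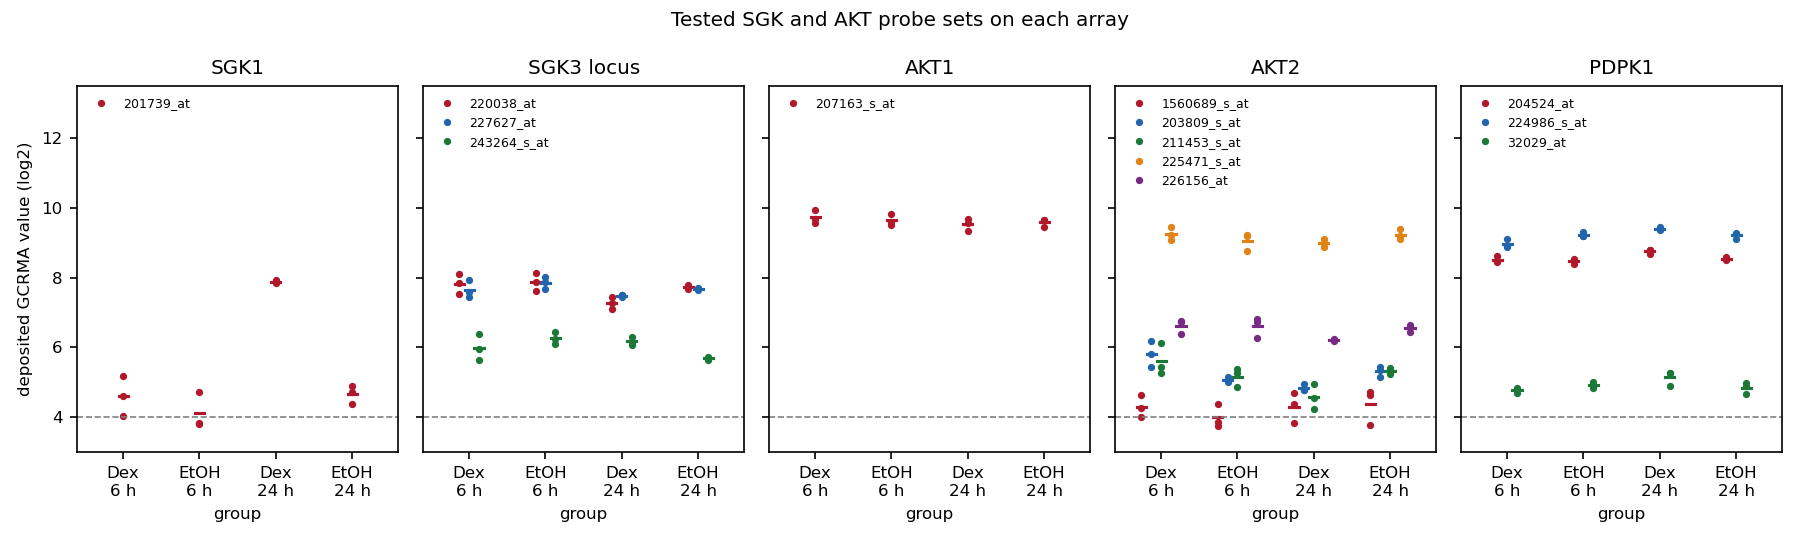
Deposited GCRMA values (log2) of the 13 tested probe sets of SGK1, the SGK3 locus, AKT1, AKT2 and PDPK1 on each of the 12 arrays, by group; points are arrays, short bars group means, and the dashed line is the value of 4 used in the filter. SGK1 stands at 7.83 to 7.94 on the dexamethasone arrays of 24 h and at 3.80 to 5.17 on all others, while AKT1 stays between 9.34 and 9.95; levels of different probe sets are not comparable.

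AKT1, the broadly expressed AKT isoform, was not called in any comparison on the deposited scale. Its probe set 207163_s_at read 9.56, 9.95 and 9.67 with dexamethasone and 9.59, 9.82 and 9.52 with ethanol at 6 h, and 9.34, 9.69 and 9.56 with dexamethasone and 9.45, 9.65 and 9.65 with ethanol at 24 h. The groups overlapped at both times. The differences were 0.09 ± 0.13 at 6 h and -0.05 ± 0.13 at 24 h (limma, adjusted p = 0.781 and 0.770), with 95% intervals of -0.20 to 0.37 and -0.34 to 0.24. On the spike scale they became -0.38 and -0.39 and passed as lower (limma, adjusted p = 0.0244 and 0.0251).

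AKT2, the isoform best known for its part in insulin-driven glucose uptake, was higher at 6 h in 1 probe set and lower at 24 h in 2, among them the same one. At 203809_s_at the dexamethasone arrays of 6 h read 5.43, 6.17 and 5.80, against 5.07, 4.99 and 5.15 with ethanol. At 24 h the same probe set read 4.77, 4.77 and 4.95 with dexamethasone, against 5.36, 5.14 and 5.43 with ethanol. All dexamethasone arrays thus lay above the ethanol arrays at 6 h and below them at 24 h. The difference was 0.73 ± 0.16 at 6 h (1.66-fold, limma, adjusted p = 0.0219) and -0.48 ± 0.16 at 24 h (0.716-fold, limma, adjusted p = 0.0264), and the 24 h response lay 1.21 ± 0.22 below the 6 h response (log2 difference -1.21, limma, adjusted p = 0.00312).

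The change of the AKT2 response between the times at 203809_s_at passed in all 12 fits that left out an array, but its calls at the single times were less firm. The 6 h call was lost without the dexamethasone array of experiment 3 or without any of the ethanol arrays of 6 h, and the 24 h call without experiment 1 or experiment 3 of the ethanol arrays or experiment 1 or 2 of the dexamethasone arrays, with adjusted p of at most 0.0698 and 0.0859. On the spike scale the 6 h difference shrank to 0.26 (limma, adjusted p = 0.197).

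A second AKT2 probe set, 211453_s_at, read 5.26, 6.12 and 5.42 with dexamethasone and 4.85, 5.25 and 5.36 with ethanol at 6 h, and 4.23, 4.53 and 4.94 with dexamethasone and 5.40, 5.24 and 5.31 with ethanol at 24 h. Its groups overlapped at 6 h (0.45 ± 0.23, limma, adjusted p = 0.323) and were apart at 24 h, where it fell (-0.75 ± 0.23, limma, adjusted p = 0.0217). The 24 h call was lost without the same 4 arrays as above (adjusted p at most 0.0872). The change between the times was -1.19 ± 0.33 (limma, adjusted p = 0.0246), and it was lost without the ethanol array of experiment 0 at 6 h, or without the ethanol or the dexamethasone array of experiment 1 at 24 h (adjusted p at most 0.0583).

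The other 3 tested AKT2 probe sets did not pass at either time on the deposited scale. 226156_at lay between 6.19 and 6.23 with dexamethasone at 24 h, below the 6.44 to 6.62 of the ethanol arrays. Its difference of -0.34 ± 0.14 missed the threshold (limma, adjusted p = 0.0776) and passed with the experiment as a block (adjusted p = 0.00437); at 6 h it was 0.02 ± 0.14. 225471_s_at, the AKT2 probe set with the highest level, gave 0.19 ± 0.14 at 6 h and -0.22 ± 0.14 at 24 h (limma, adjusted p = 0.495 and 0.225). With the block, the change between the times passed for both, at -0.36 for 226156_at and -0.42 for 225471_s_at (limma, adjusted p = 0.0251 and 0.0435). 1560689_s_at, which reached 4 on 8 of 12 arrays, gave 0.30 ± 0.30 and -0.08 ± 0.30. The remaining 2, 203808_at and 236664_at, stayed between 2.13 and 2.34 on every array and were not tested. Each of the 5 tested probe sets had a positive difference at 6 h and a negative one at 24 h, and their mean, taken per array, gave 0.34 ± 0.13 at 6 h (limma, adjusted p = 0.157) and -0.37 ± 0.13 at 24 h (adjusted p = 0.0333), a change of -0.71 ± 0.19 (adjusted p = 0.0155). The 5 read 1 gene on the same 12 arrays and are not independent. Over these arrays 203809_s_at and 211453_s_at correlated at 0.87, and each of them with 225471_s_at and 226156_at at 0.59 to 0.76. For 1560689_s_at the correlations with the others were -0.04 to 0.18. On the spike scale 4 of the 5 were negative at 6 h too, 226156_at passed as lower at 6 h (-0.45, limma, adjusted p = 0.0269) and at 24 h (-0.67, adjusted p = 0.00294), and 225471_s_at passed as lower at 24 h (-0.56, adjusted p = 0.00483).

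PDPK1, the kinase upstream of the others, rose by little at 24 h. Its probe set 204524_at read 8.67, 8.80 and 8.78 with dexamethasone at 24 h, against 8.53, 8.59 and 8.50 with ethanol. The groups did not overlap, and the difference was 0.21 ± 0.08 (1.16-fold, limma, adjusted p = 0.0441). This call was lost with the experiment as a block (adjusted p = 0.0614), with the spike controls as the scale, where the sign turned (-0.13, adjusted p = 0.487), and in 8 of the 12 fits that left out an array (adjusted p at most 0.115). These were the fits without dexamethasone experiment 1 or ethanol experiment 1 or 3 at 6 h, and without any array of 24 h other than dexamethasone experiment 1. At 6 h it gave 0.04 ± 0.08, and on the spike scale it passed as lower there (-0.42, limma, adjusted p = 0.0235).

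PDPK1 224986_s_at lay lower with dexamethasone at 6 h and higher at 24 h. It read 9.10, 8.88 and 8.91 with dexamethasone at 6 h, against 9.19, 9.20 and 9.29 with ethanol, and 9.45, 9.38 and 9.39 with dexamethasone at 24 h, against 9.11, 9.27 and 9.25 with ethanol. The groups did not overlap at either time, but neither difference passed, at -0.27 ± 0.08 and 0.20 ± 0.08 (limma, adjusted p = 0.0782 and 0.0607). The change between the times did, at 0.47 ± 0.11 (limma, adjusted p = 0.0130), also in all 12 fits that left out an array, but not on the spike scale (0.60, adjusted p = 0.0654). 32029_at gave -0.13 ± 0.12 at 6 h and 0.30 ± 0.12 at 24 h (limma, adjusted p = 0.573 and 0.0548). Both passed as lower at 6 h on the spike scale, 224986_s_at at -0.74 and 32029_at at -0.60 (limma, adjusted p = 0.00195 and 0.00482).

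The 3 other PDPK1 probe sets, 221244_s_at, 244629_s_at and 244630_at, lay between 2.19 and 3.38 and were not tested. The mean of the 3 tested ones was -0.12 ± 0.07 at 6 h (limma, adjusted p = 0.328) and 0.24 ± 0.07 at 24 h (adjusted p = 0.0116), a change of 0.36 ± 0.09 (adjusted p = 0.0166). Each of the 3 was negative at 24 h on the spike scale (-0.13, -0.14 and -0.040), and none passed. PDPK1 lies on chromosome 16 (GRCh38.p14, 2538021 to 2603188) next to PDPK2P (2616553 to 2642490), a pseudogene copy, and how the probes divide between the gene and the copy was not tested.

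The SGK3 locus encodes the SGK isoform that binds endosomal membranes through its own lipid-binding domain, and its 3 probe sets disagreed. At 24 h 220038_at read 7.27, 7.44 and 7.09 with dexamethasone, against 7.73, 7.66 and 7.78 with ethanol, and fell by 0.46 ± 0.16 on the log2 scale (limma, adjusted p = 0.0353). 243264_s_at, the one that also carries C8orf44, read 6.30, 6.07 and 6.14 with dexamethasone, against 5.69, 5.73 and 5.63 with ethanol, and rose by 0.49 ± 0.16 (limma, adjusted p = 0.0297). Neither pair of groups overlapped. The rise of 243264_s_at shrank to 0.15 on the spike scale and did not pass (limma, adjusted p = 0.544), while 220038_at (-0.80, adjusted p = 0.00221) and 227627_at (-0.53, adjusted p = 0.0173) passed as lower.

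The remaining probe set of the SGK3 locus, 227627_at, gave -0.19 ± 0.12 at both times, without overlap between the groups at 24 h (limma, adjusted p = 0.423 and 0.234), and no probe set passed at 6 h. All 3 passed as lower at 6 h on the spike scale, as did 65% of all tested probe sets. There 220038_at was at -0.50, 227627_at at -0.66 and 243264_s_at at -0.74 (limma, adjusted p = 0.0284, 0.00634 and 0.00838). For 243264_s_at the response changed by 0.76 ± 0.23 between the times (limma, adjusted p = 0.0365), but with the experiment as a block neither this nor its 24 h difference passed (adjusted p = 0.0653 and 0.0607), and the change did not pass on the spike scale (adjusted p = 0.0502). For 220038_at the block left the 24 h call in place and brought the change of -0.43 between the times past the threshold (adjusted p = 0.0429). The 24 h calls of 220038_at and 243264_s_at each held in 7 of the 12 fits that left out an array, and the change at 243264_s_at in 3, those without dexamethasone or ethanol experiment 0 of 6 h or dexamethasone experiment 2 of 24 h. 220038_at was lost without any ethanol array of 24 h or the dexamethasone arrays of experiments 1 and 3 at 24 h, and 243264_s_at at 24 h without the same arrays (adjusted p at most 0.125 and 0.0966). The ethanol arrays of 243264_s_at themselves read 5.68 ± 0.05 at 24 h and 6.26 ± 0.17 at 6 h, without overlap (-0.58 ± 0.16, limma, adjusted p = 0.141).

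**Figure D2:**
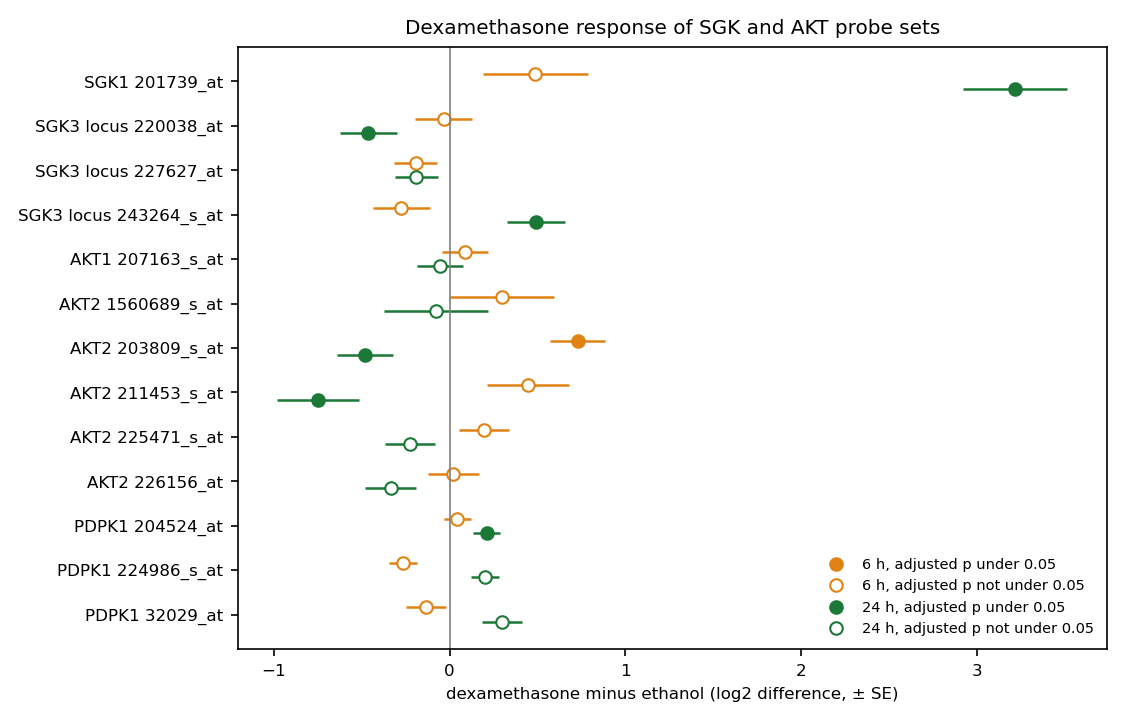
Log2 difference of dexamethasone minus ethanol with its standard error at 6 h (orange) and 24 h (green) for the 13 tested probe sets; filled points had an adjusted p under 0.05. SGK1 at 24 h lies at 3.22 and every other difference between -0.75 and 0.73; the AKT2 probe sets lie right of 0 at 6 h and left of it at 24 h.

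Of the 15 probe sets with 1 member symbol, 10 passed the filter. At 6 h 1 of these 10 was called, AKT2 203809_s_at as higher, against 6.2% of all tested probe sets (2.66% higher). At 24 h 4 were called, SGK1 and PDPK1 204524_at as higher and AKT2 203809_s_at and 211453_s_at as lower, against 47.3% of all (22.8% higher and 24.5% lower), a share near the background. The change between the times was called for 4, SGK1 and PDPK1 224986_s_at upward and the same pair of AKT2 probe sets downward, against 23.1% of all (11.4% and 11.7%). On the spike scale the 6 h count was 5, all lower, against 66.2% of all tested probe sets (65% lower), and the 24 h count was 6, with SGK1 as the only rise, against 52.8%.

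None of the 10 was called in ethanol at 24 h against ethanol at 6 h (limma, and none had an unadjusted p under 0.05), against 0.486% of all tested probe sets. Between dexamethasone at 24 h and dexamethasone at 6 h 7 of the 10 were called, 4 higher and 3 lower, against 46.7% of all (23.9% higher and 22.8% lower). SGK1 (3.28) and all 3 PDPK1 probe sets (0.24, 0.45 and 0.36) were higher at 24 h, and AKT2 203809_s_at (-0.97), 211453_s_at (-1.03) and 226156_at (-0.41) were lower. These comparisons share arrays with those against ethanol and are no independent support for them.

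**Figure D3:**
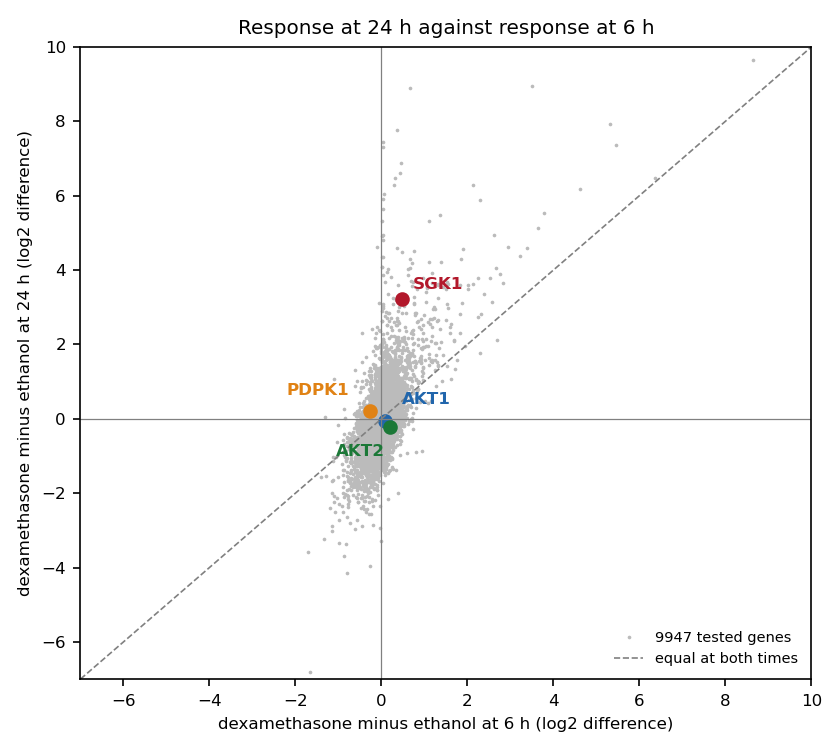
Log2 difference of dexamethasone minus ethanol at 24 h (vertical axis) against that at 6 h (horizontal axis) for 9947 tested genes, with 1 probe set each, the one with the highest mean; the dashed line marks equal responses. SGK1 lies at 0.49 and 3.22, far above the line, and AKT1, AKT2 and PDPK1 lie near the centre of the cloud.

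Among the 9947 genes, 84 had a 24 h difference at least as large as that of SGK1. Of these 84, 35 were called higher at 6 h as well and 49, like SGK1, were not. Among all 9947 genes 271 were called higher at 6 h, a much smaller share. In this plot AKT2 and PDPK1 stand with their probe sets of highest level, 225471_s_at and 224986_s_at.

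The genes around the kinases were read from lists written for this report, with 1 probe set per gene. Of all 9947 tested genes, 6.49% were called at 6 h and 52% at 24 h (23.9% higher and 28.1% lower), with a median 24 h difference of -0.02. At 24 h 9.65% of them were higher and 47% lower on the spike scale, and with the experiment as a block 13.6% were called at 6 h, which are the shares to set beside such counts below. On the upstream side, 14 of 19 listed activators of AKT and SGK (PI3-kinase subunits, receptor adaptors and mTORC2 subunits) were measured. At 24 h 6 rose and 6 fell, with a median of -0.06, and on the spike scale 4 rose (PIK3CG, PIK3R1, PIK3R3 and IRS1) and 7 fell. PIK3R1, the main regulatory subunit of class I PI3-kinase, averaged 12.62 ± 0.06 with dexamethasone and 9.78 ± 0.13 with ethanol at 24 h, a rise of 2.84 ± 0.10 (limma, adjusted p = 7.01e-09). IRS1, an adaptor below the insulin and IGF receptors, rose by 2.39 ± 0.31. The mTOR complex subunit MLST8 (-0.92 ± 0.11) and the mTORC2-associated PRR5L (-1.26 ± 0.16) fell. At 6 h only PIK3R1 was called in this list, at 0.57 ± 0.10, and not on the spike scale (adjusted p = 0.525); with the experiment as a block 2 were higher (PIK3R1 and PIK3CG) and 2 lower (PRR5 and PRR5L) at 6 h.

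Of 18 listed brakes on AKT and SGK, 15 were measured, of which 7 rose and 2 fell at 24 h (median 0.28), or 4 and 6 on the spike scale, where the 4 were TRIB1, PIK3IP1, FKBP5 and DDIT4. TRIB1, a pseudokinase whose relatives bind AKT, averaged 8.85 ± 0.21 with dexamethasone and 2.36 ± 0.29 with ethanol at 24 h. Its ethanol arrays were all below 4, so the rise is given as a log2 difference of at least 4.85 measured against 4. PIK3IP1, which inhibits PI3-kinase, rose by 5.54 ± 0.32, FKBP5, a scaffold that brings the phosphatase PHLPP to AKT, by 3.13 ± 0.12, and DDIT4, an inhibitor of mTOR signalling, by 2.74 ± 0.18 (limma, adjusted p from 1.46e-08 to 7.78e-07). These 4 were also the only called brakes at 6 h, where TRIB1 rose by at least 4.64, PIK3IP1 by 3.77, FKBP5 by 2.57 and DDIT4 by 2.24. With the block the same 4 were higher and 2 were lower at 6 h, TRIB3 (-0.49, adjusted p = 0.0157) and INPP4A (-0.28, adjusted p = 0.0367). TRIB3, a pseudokinase reported to bind AKT, and the phosphatase PHLPP2 fell at 24 h, by 1.27 and 0.44 on the log2 scale.

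Other AGC kinases that PDPK1 can phosphorylate numbered 17 measured of 23. At 24 h 6 rose and 2 fell (median 0.19), but on the spike scale 1 rose, PRKCA, and 7 fell. PRKCA, a conventional protein kinase C, rose at both times, by 0.90 ± 0.10 at 6 h and 1.64 ± 0.10 at 24 h (limma, adjusted p = 0.000529 and 5.59e-07), and was the only call at 6 h; PRKCI had the next smallest p there (-0.27, adjusted p = 0.0581). With the experiment as a block 4 were higher (PRKCA, PRKCB, PRKCE and PRKACA) and 1 lower (PRKCH) at 6 h. PRKACB, a catalytic subunit of protein kinase A, rose by 0.49 at 24 h (0.16 on the spike scale, adjusted p = 0.381). PRKCH (-0.95) and RPS6KA4 (-0.65) fell.

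Among the scaffolds and partners of AKT 14 of 16 were measured, and at 24 h 1 rose and 5 fell (median 0.01; none rose and 6 fell on the spike scale). HSP90AB1, the constitutive HSP90 that with its co-chaperone CDC37 stabilizes client kinases, averaged 13.11 ± 0.19 with dexamethasone and 14.00 ± 0.08 with ethanol, a fall of 0.88 ± 0.10 on the log2 scale (limma, adjusted p = 4.13e-05). CDC37 (-0.37) and the phosphoserine-binding adaptor YWHAG (-0.47) also fell. The inducible HSP90AA1 (-0.23) and YWHAE (-0.24) were called as lower too, but each call was lost without any of 4 arrays of 24 h, for HSP90AA1 ethanol 1 and 2 and dexamethasone 1 and 3, and for YWHAE ethanol 1 and 3 and dexamethasone 1 and 3 (adjusted p at most 0.0862 and 0.0751). APPL2, an endosomal AKT adaptor, was the rise, at 0.62 ± 0.15, and did not pass on the spike scale (adjusted p = 0.103). At 6 h YWHAH alone was called (-0.28, adjusted p = 0.0490), a call lost without any 1 of the 12 arrays.

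Of 26 substrates of AKT or SGK 19 were measured, with 6 higher and 5 lower at 24 h (median 0.10), or 4 (PFKFB2, GSK3B, FOXO3 and NDRG1) and 6 on the spike scale. PFKFB2, which makes the allosteric activator of glycolysis, averaged 10.89 ± 0.24 with dexamethasone and 2.97 ± 0.02 with ethanol at 24 h, a rise of at least 6.89 against 4. GSK3B, the kinase that AKT inhibits, rose by 1.61 ± 0.12 and FOXO3 by 1.00 ± 0.08. TBC1D4, the Rab GTPase-activating protein through which AKT2 acts on glucose transporters in muscle and fat, fell by 1.28 ± 0.09 on the log2 scale, and MDM2 (-0.49), CHUK (-0.42), ARFIP2 (-0.32) and AKT1S1 (-0.29) were lower as well. AKT1S1 was lost without dexamethasone experiment 1 or 3 or ethanol experiment 3 of 24 h (adjusted p at most 0.0668). At 6 h PFKFB2 (at least 4.45 against 4) and TSC1 (0.46) were higher and TBC1D4 (-0.48) lower; TSC1 was lost without experiment 3 of either 6 h group (adjusted p at most 0.0593), and on the spike scale it was not higher (-0.0078, adjusted p = 0.968). With the block 4 were higher at 6 h (PFKFB2, TSC1, GSK3B and TSC2) and 1 lower (TBC1D4).

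Transcripts that FOXO factors are known to activate were mostly higher: of 19 measured among 22 listed, 16 rose and 2 fell at 24 h, or 14 and 2 on the spike scale, with a median of 1.71. Many of them are also known glucocorticoid responders, and the list was written with results of these arrays in view. BCL2L11, which encodes the pro-apoptotic BIM, averaged 11.92 ± 0.13 with dexamethasone and 8.31 ± 0.09 with ethanol at 24 h, a rise of 3.61 ± 0.12 (limma, adjusted p = 6.93e-09). The transcriptional repressor BCL6 rose by 5.32 ± 0.22, the autophagy gene GABARAPL1 by 4.18 ± 0.23 and the stress-induced mTOR inhibitor SESN1 by 3.66 ± 0.15. The homing receptor CCR7 (-0.87) and the mitochondrial superoxide dismutase SOD2 (-0.97) fell. At 6 h BCL2L11 (1.82), SESN1 (1.17), BCL6 (1.11), TXNIP (0.87) and IL7R (2.30) were higher and CCR7 was lower (-0.63). With the block 7 were higher at 6 h, CCNG2 (1.03, adjusted p = 0.000679) and GABARAPL1 (0.70, adjusted p = 0.0382) being added, and 1 was lower. TXNIP did not pass on the spike scale (adjusted p = 0.0827), BCL6 was lost without ethanol experiment 0 or 3 of 6 h, and CCR7 without any array of 6 h, either ethanol experiment 1 or 2 of 24 h or dexamethasone experiment 1 of 24 h (adjusted p at most 0.0543 and 0.148).

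**Figure D4:**
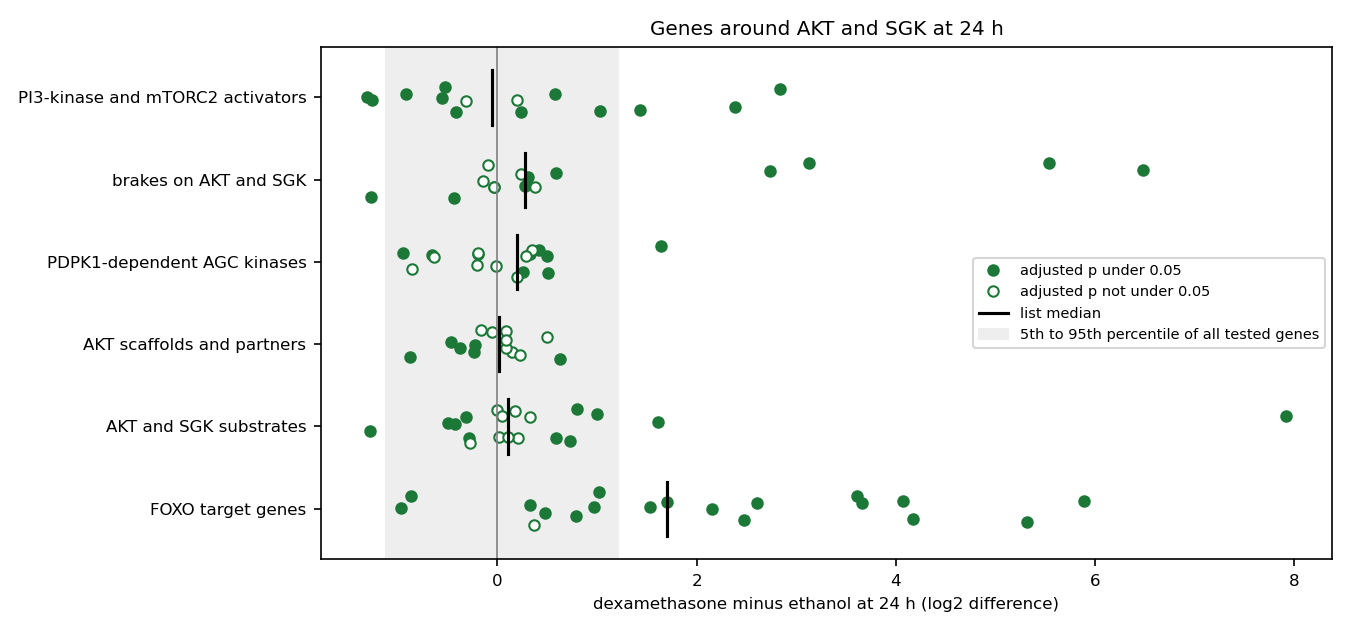
Log2 difference of dexamethasone minus ethanol at 24 h for the measured genes of 6 lists around AKT and SGK; each point is a gene, filled where the adjusted p was under 0.05, black bars are list medians, vertical scatter has no meaning, and the grey band spans the 5th to 95th percentile of all tested genes (-1.12 to 1.21). FOXO targets have a median of 1.71, while the other medians lie between -0.06 and 0.28; TRIB1, PFKFB2 and FBXO32 are drawn at fitted values although their ethanol arrays were below 4.

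The genes whose profile over the 12 arrays was most like that of a member were taken by Pearson's r among 9946 other genes, as a description with no test. For SGK1 they were CPNE4 (0.990), DCAF5 (0.988) and SPPL2A (0.986), whose 24 h differences were 3.29, 1.09 and 0.93 and whose 6 h differences were 0.76, 0.18 and 0.12. Since the 3 dexamethasone arrays of 24 h stand apart from the other 9, r here mostly reads that step. AKT1 was followed most closely by ZNF335 (0.934), DCPS (0.922) and PGD (0.899), all with differences between -0.11 and 0.13. For AKT2 225471_s_at the nearest were the replication genes CHTF18 (0.938) and POLD1 (0.914) and the ciliary gene IFT122 (0.926), each with a positive difference at 6 h and a negative one at 24 h. For PDPK1 224986_s_at TMEM87B (0.937), ZNF708 (0.935) and VPS37A (0.933) came first, each negative at 6 h and positive at 24 h.

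**Figure D5:**
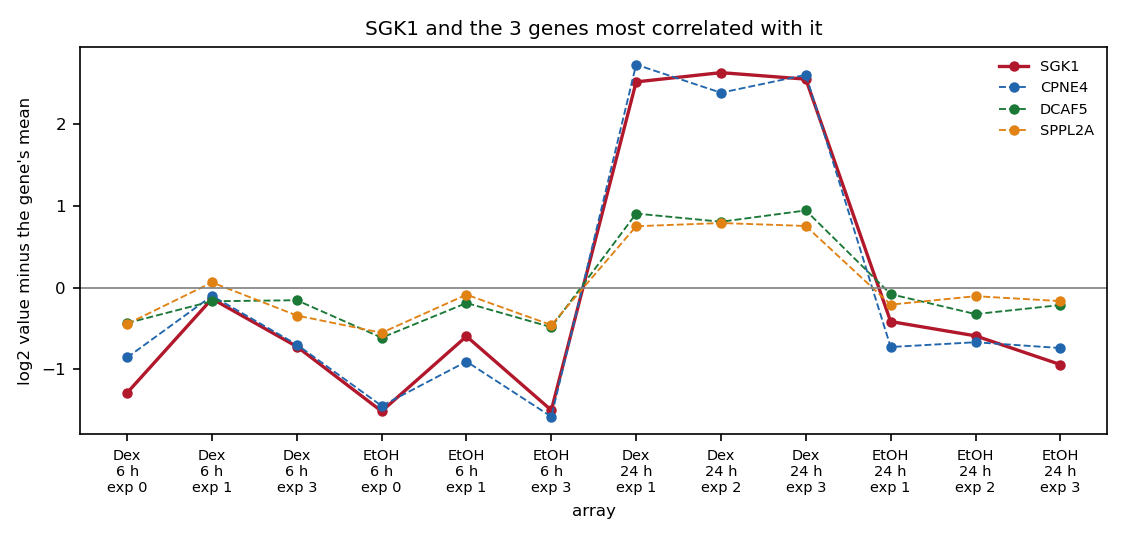
Log2 value minus the gene's mean over the 12 arrays for SGK1 and the 3 genes most correlated with it; each point is an array, and lines only join the points of a gene. All 4 genes are highest on the 3 dexamethasone arrays of 24 h, where SGK1 and CPNE4 stand more than 2 log2 units above their means and DCAF5 and SPPL2A less than 1.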

How the data were processed

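Per the submitters' processing notes, the authors processed the arrays with GCRMA in R 2.6, and deposited 1 table of log2 values with a column per array. Neither the settings nor the set of arrays normalized jointly is given in those notes. Gene symbols came from the platform annotation: 41097 probe sets had 1 symbol, 1801 several and 11777 none; only those with 1 were named, except at the SGK3 locus. Without the 62 control probe sets, 23265 probe sets with a log2 of 4 or more on at least 3 arrays were tested.

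The 12 arrays entered 1 linear model with a mean for each group (limma 3.58.1, R 4.3.3, empirical Bayes moderation, 8 residual degrees of freedom, Benjamini-Hochberg adjustment over every tested probe set). The fit was checked on simulated data. It had no experiment term. The experiment numbers pair the arrays: per the labels they mark independent experiments, and same-numbered arrays correlated, after removal of group means, at 0.417, 0.627 and 0.609 at 6 h and 0.286, 0.238 and 0.424 at 24 h, against at most 0.0500 for other pairs. A blocked value (experiment within each time) is given for member probe sets where it alters a call, for SGK1 at 6 h, and for the lists as counts. A gene whose arrays of 1 group were all below 4 was given a bound against 4. Sequences and positions are RefSeq's (GRCh38.p14).

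Every member probe set was named, and of each list around the kinases the 4 genes with the smallest p at 24 h, the 2 at 6 h and every gene behind a count of 5 or fewer. The genes behind the blocked list counts at 24 h and the counts of changed markers were not all named. 1 AGC kinase that this rule names is not reported here. The members, lists and tests were chosen with earlier results of these data known. Alternatives were the block, other filters, median centring, cyclic loess, the spike scale, an intensity trend, fits on the compared groups only, leaving out each array and averaging a gene's probe sets.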

Additional observations from a re-analysis of the deposited data

Results flagged for a closer look

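Among the 10 tested probe sets with 1 member symbol and the 3 of the SGK3 locus, 5 responded to dexamethasone differently at 24 h and at 6 h. The measure was the interaction term of the limma model, given as the 24 h log2 difference minus the 6 h log2 difference. Of all tested probe sets 23.1% were called by this term. For SGK1 it was 2.73 (adjusted p = 0.00112), higher in every same-numbered experiment at both times but called only at 24 h. For AKT2 203809_s_at it was -1.21 (adjusted p = 0.00312), with all dexamethasone arrays above the ethanol arrays at 6 h and below them at 24 h. For AKT2 211453_s_at it was -1.19 (adjusted p = 0.0246), called in 9 of the 12 fits that left out an array. For PDPK1 224986_s_at it was 0.47 (adjusted p = 0.0130), with the dexamethasone arrays below the ethanol arrays at 6 h and above them at 24 h. For 243264_s_at of the SGK3 locus it was 0.76 (adjusted p = 0.0365), called in 3 of those 12 fits and not with the experiment as a block (adjusted p = 0.0653). The file-name code that cannot be told apart from the treatment at 6 h enters each of these differences, and its part was not tested.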

How the results depend on the processing

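The SGK1 rise at 24 h and its change between the times kept direction and call in every alternative run, at 2.88 to 3.22 and 2.68 to 2.86 outside the fits that left out an array and 3.07 to 3.33 and 2.43 to 3.02 in those. The 6 h count of 1 became 0 with no filter, 0 with a filter at 6, 0 on the arrays of 6 h alone and 5 on the spike scale, and ranged from 0 to 2 over the fits leaving out an array. The 24 h count of 4 became 2 with no filter and 2 with a filter at 6, and ranged from 1 to 5 without 1 array (1 without ethanol experiment 1 or 3 of 24 h, 2 without dexamethasone experiment 1 or 2 of 24 h). The count of 4 for the change between the times became 2 with a filter at 6, and the count of 7 for dexamethasone at 24 h against 6 h became 4 with that filter, 4 on the spike scale and 4 to 7 without 1 array (4 without dexamethasone experiment 3 of 24 h). With a gene's probe sets averaged, SGK1, AKT2 and PDPK1 were called at 24 h, the same genes to which the 4 called probe sets belong. With only the probe set of highest mean for each gene, SGK1 alone was called. The causes were not tested, except that a filter at 6 leaves fewer members. It leaves out AKT2 203809_s_at and 211453_s_at, which reached 6 only on the dexamethasone array of experiment 1 at 6 h. Their calls at 6 h, at 24 h and for the change between the times are therefore absent from the counts with that filter. Shares over all probe sets with other filters or without 1 array are not set beside these counts, which are a description only.

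On the spike scale the 6 h difference turned negative for AKT1 (-0.38), AKT2 1560689_s_at (-0.17), 211453_s_at (-0.022), 225471_s_at (-0.27) and 226156_at (-0.45) and PDPK1 204524_at (-0.42), and the 24 h difference for PDPK1 204524_at (-0.13), 224986_s_at (-0.14) and 32029_at (-0.040). PDPK1 204524_at in ethanol at 24 h against 6 h also turned (-0.076). Cyclic loess turned AKT1 at 24 h (0.019) and, as median centring did (-0.025), the change between the times of 227627_at of the SGK3 locus (-0.013). The experiment as a block shared across times turned AKT2 1560689_s_at in dexamethasone at 24 h against 6 h (0.22). Each of these has an adjusted p above 0.05 in the model as fitted, other than PDPK1 204524_at at 24 h.

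Leaving out an array turned the sign only of differences near 0. At 6 h the ranges were -0.028 to 0.18 for AKT1, -0.15 to 0.14 for AKT2 226156_at, -0.014 to 0.079 for PDPK1 204524_at and -0.17 to 0.12 for 220038_at. At 24 h they were -0.13 to 0.044 for AKT1 and -0.38 to 0.16 for AKT2 1560689_s_at. Over ethanol they were -0.12 to 0.029 for AKT1, -0.22 to 0.056 for AKT2 226156_at, -0.049 to 0.030 for PDPK1 224986_s_at and -0.14 to 0.017 for 32029_at, over dexamethasone -0.20 to 0.24 for AKT2 1560689_s_at, and between the responses -0.10 to 0.15 for 227627_at. The replicate block left the member counts at 1 at 6 h and 4 at 24 h, gave 6 for the change between the times, and changed no other call of dexamethasone against ethanol than those given beside the results; shared across times it also lost PDPK1 204524_at (0.22) and 32029_at (0.36) and gained AKT2 225471_s_at (-0.39) in dexamethasone at 24 h against 6 h. For the lists at 24 h the block gave 5 higher and 6 lower activators, 9 and 2 brakes, 7 and 5 AGC kinases, 3 and 5 scaffolds, 7 and 5 substrates and 16 and 2 FOXO targets. Among all 9947 tested genes it gave 2869 higher and 3225 lower at 24 h, more than without the block, where 2378 were higher and 2797 lower. At 6 h it gave 605 higher and 749 lower, against 271 and 375 without the block. For the change between the times it gave 1790 higher and 2032 lower, against 1221 and 1471. The block thus raised the numbers over all genes too, and the member counts with the block are to be read beside them.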
